A study of Mus musculus with 4 samples.

Results

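The genes examined here were 41 named cell cycle and proliferation genes, measured in whole mouse liver on 4 Agilent arrays read in 2 colours. They were taken as the array probes whose gene name is on the list, and where a gene had several, the brightest on average stood for it. All 41 genes had a probe, 58 probes in all, and 33 of them could be tested among the 16112 genes of the array that were above background. Each array carried liver RNA from mice given AAV_Cre against liver RNA from mice given AAV_Null. AAV is an adeno-associated virus used to carry a gene into the liver; the Cre recombinase cuts out DNA between loxP sites, and the AAV_Null virus served as the control. All mice were C57B/6 females of 8 to 10 weeks, and every mouse, the AAV_Null controls too, was homozygous for a floxed allele of Trib1, which encodes the pseudokinase Tribbles-1. Livers were taken 1 week after the injection and after a 4 hour fast. The study names the AAV_Cre mice as carrying a knockout limited to the liver, but its labels give no promoter for the Cre and no statement of which part of Trib1 is floxed. The labels also do not say whether an RNA came from 1 mouse or a pool. AAV_Cre RNA was labelled with Cy5 on arrays 1 and 2 and with Cy3 on arrays 3 and 4, with each RNA hybridised a single time, so the 4 arrays compare 4 separate pairs of RNA.

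Cells enter division when D-type cyclins with Cdk4 or Cdk6, and then E-type cyclins with Cdk2, phosphorylate the retinoblastoma protein and free E2F transcription factors. E2F factors switch on genes for nucleotide synthesis and for the MCM helicase that opens DNA at replication origins, and a later programme driven by B-type cyclins, Cdk1, Foxm1 and Aurora and Polo kinases carries the cell through mitosis. Most hepatocytes of an adult liver are quiescent and many are polyploid, and they re-enter the cycle after loss of liver tissue or injury. In whole liver RNA, a change in the number of cells of a type and a change in RNA per cell cannot be told apart.

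Promoters of 3 genes are shown for the place of these genes in the results below, and no ratio was set against the promoter letters. Rrm2 was the single gene of the list to pass the test, E2f8 had the lowest ratio, and Mcm6 had the lowest ratio of the helicase genes. Each sequence is the 250 bases before the annotated start in RefSeq, on the gene's own strand in build GRCm38.p6. They lie at chr12:24708004-24708253 on the plus strand for Rrm2, chr7:48881597-48881846 on the minus strand for E2f8 and chr1:128359706-128359955 on the minus strand for Mcm6. Capitals mark matches, on either strand, to the E2F site letters TTTCCCGC or TTTGGCGC, to TTTGAA, the cell cycle homology region, and to the CCAAT box.
Rrm2 promoter: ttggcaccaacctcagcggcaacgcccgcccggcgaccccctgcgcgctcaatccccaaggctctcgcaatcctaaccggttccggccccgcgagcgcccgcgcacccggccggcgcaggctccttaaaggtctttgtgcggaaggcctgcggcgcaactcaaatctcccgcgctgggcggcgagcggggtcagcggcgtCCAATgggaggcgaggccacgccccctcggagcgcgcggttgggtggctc
E2f8 promoter: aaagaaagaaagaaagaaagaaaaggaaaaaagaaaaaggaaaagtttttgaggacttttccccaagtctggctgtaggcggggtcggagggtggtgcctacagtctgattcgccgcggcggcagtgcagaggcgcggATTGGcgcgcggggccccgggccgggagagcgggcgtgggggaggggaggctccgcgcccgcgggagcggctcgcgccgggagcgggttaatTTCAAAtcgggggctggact
Mcm6 promoter: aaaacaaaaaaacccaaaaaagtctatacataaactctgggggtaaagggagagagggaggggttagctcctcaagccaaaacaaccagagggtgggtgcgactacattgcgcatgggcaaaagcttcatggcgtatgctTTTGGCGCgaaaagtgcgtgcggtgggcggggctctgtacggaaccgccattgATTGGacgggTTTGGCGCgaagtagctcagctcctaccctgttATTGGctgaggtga
The Rrm2 window held 1 CCAAT box, 50 bases before the start, and no E2F letters. The E2f8 window held TTTGAA on the opposite strand 20 bases before the start and a CCAAT box 112 bases before it. The Mcm6 window held TTTGGCGC 110 and 47 bases before the start, with 2 CCAAT boxes read on the opposite strand. Of the 41 genes, 31 had a RefSeq promoter in the table used. The E2F letters were present in 4 of those 31 (12.9%), namely Cdk2, Mcm5, Mcm6 and Mcm7, against 407 of 27025 genes in all (1.51%). CCAAT boxes were present in 22 of 31 (71.0%), against 37.5% of all genes, and TTTGAA in 7 of 31 (22.6%), against 18.3% of all genes. No motif overlapped another in the windows printed. These are matches of letters within 250 bases and were not tested as binding sites. Other spellings of the E2F site were not sought, so a window without these E2F letters may still hold one.

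Probes limited what could be read for several mitotic genes. The 4 probes shown were picked as having a reading frame without a stop codon, and not all of them were dim. All are 60 bases and are given as printed on the array, with positions in mm9.
Top2a probe, chr11:98855522-98855581, minus strand: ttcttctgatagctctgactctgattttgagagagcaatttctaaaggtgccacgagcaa
Birc5 probe, chr11:117711112-117711171, plus strand: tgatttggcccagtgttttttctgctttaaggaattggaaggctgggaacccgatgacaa
Mki67 second probe, chr7:142884764-142884823, minus strand: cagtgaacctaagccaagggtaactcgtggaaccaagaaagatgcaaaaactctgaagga
Ccnb1 second probe, chr13:101553449-101553508, minus strand: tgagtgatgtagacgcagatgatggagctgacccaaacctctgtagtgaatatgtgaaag
The Top2a and Birc5 probes shown were well above background in 0 of 8 channels. The Mki67 probe was above background in all 4 AAV_Cre channels and all 4 AAV_Null channels, and the Ccnb1 probe in 3 AAV_Cre and 1 AAV_Null channels. Birc5 was therefore read from another of its probes, at chr11:117716978-117717037, which was above background in every channel.

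Detection was similar across the arrays. Of 43020 spots per array, 53.1% to 55.0% were well above background in the AAV_Cre channel and 51.0% to 58.7% in the AAV_Null channel, and none was saturated. Trib1 itself read higher in AAV_Cre liver at 2 of its 3 probes, with log2 ratios of AAV_Cre over AAV_Null of 0.94 ± 0.08 (SE, limma adjusted p = 0.0226 over genes) at the probe used and 1.29 ± 0.11 at another. The third, at lower coordinates on chromosome 15, gave -0.05 ± 0.05. At the probe used, leaving out 1 array at a time kept the ratio between 0.85 and 1.03 and ended the call each time. As the floxed part is not given, no Trib1 probe is known to lie in the deleted part, and none of the 3 checks the deletion or the labels. AAV_Cre and AAV_Null therefore name the RNAs as labelled in all that follows. All 6 hepatocyte markers were tested and none was called, though 3 of the 6 had an unadjusted p below 0.05 in limma (50%, against 22.9% of all genes). Alb, albumin, had the smallest p, at -0.39 ± 0.07 (adjusted p = 0.0748, limma). Its ratios were 0.39 and 0.27 on arrays 1 and 2, and -0.95 and -1.27 on arrays 3 and 4.

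Of the 33 tested genes, 1 was higher in AAV_Cre liver and 0 were lower at an adjusted p below 0.05 in the limma fit over all genes. Over all 16112 genes 2.80% were called, 1.79% higher and 1.01% lower, so the share of 3.03% in the list was close to the background. Without the correction for multiple tests, 15 of the 33 had p below 0.05, against 22.9% of all genes, of which 11 were lower in AAV_Cre liver (33.3% of the 33, against 11.2% of all genes) and 4 were higher (12.1%, against 11.7%). The median log2 ratio of the 33 was -0.09, against -0.00 for all genes, with 23 genes below 0 (69.7%, against 50.7% of all genes) and 10 above. A log2 ratio here is AAV_Cre over AAV_Null, so a value below 0 means less signal in AAV_Cre liver. On all 4 arrays 8 genes were below 0 (24.2%, against 11.4% of all genes) and 4 were above 0 (12.1%, against 12.1% of all genes). The median of the 33 on each array was -0.11, -0.05, 0.01 and -0.16 on arrays 1 to 4, so it was not below 0 on every array. Of the 33, 31 were above background in at least 3 channels of both treatments. Ccna2 and Mcm5 were so only in AAV_Null channels, and passed the detection filter through the AAV_Null RNA alone. Both are among the 23 genes below 0, and Ccna2 is also among the 11 lower genes with an unadjusted p below 0.05. With only probes well above background in all 8 channels, 30 genes were tested, with 21 below 0, 9 above and a median of -0.10.

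**Figure D1:**
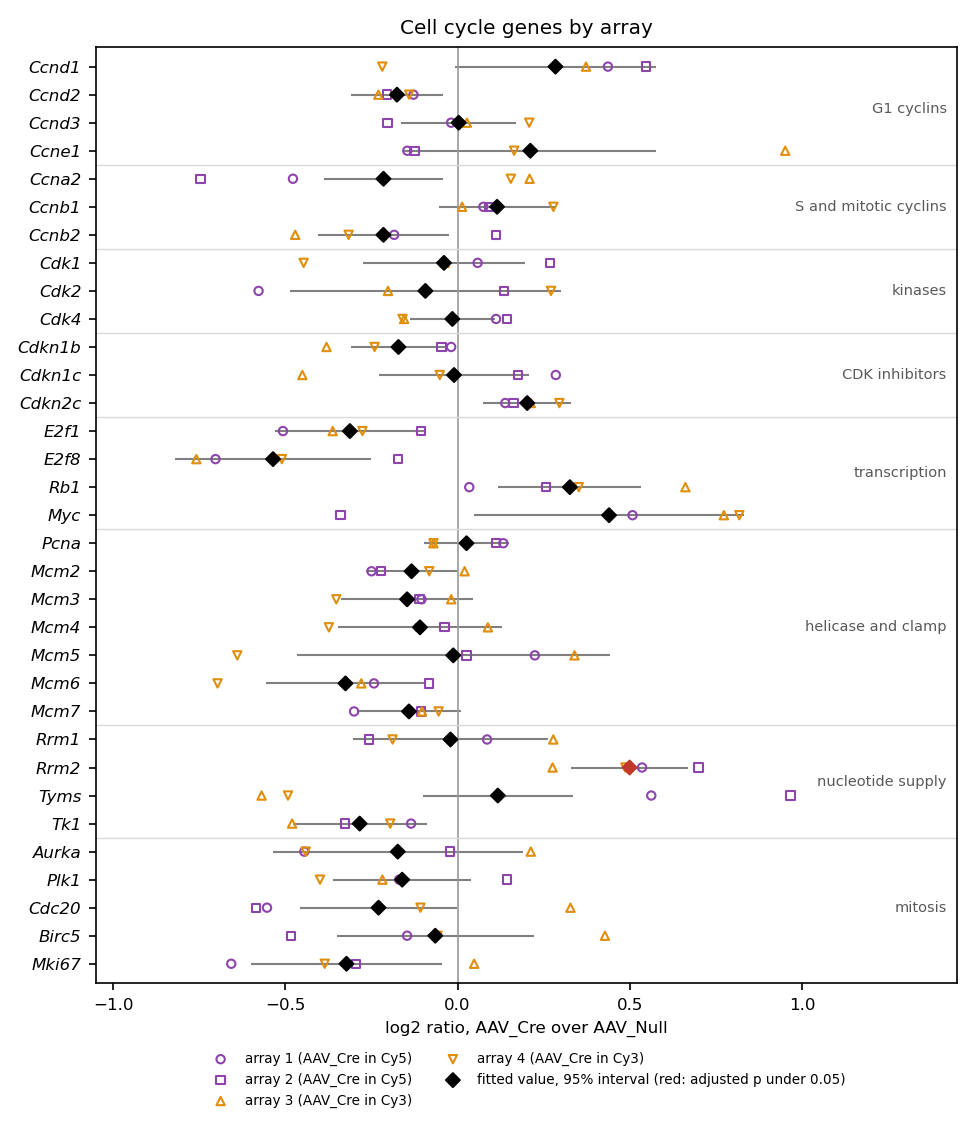
Log2 ratio of AAV_Cre over AAV_Null (horizontal axis) for each of the 33 tested cell cycle genes, grouped by role, with 1 point per array and the fitted mean with its 95% confidence interval. Rrm2 is the gene whose adjusted p is below 0.05; the fitted means run from -0.54 for E2f8 to 0.50 for Rrm2, and many genes have arrays on both sides of 0.

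Genes of nucleotide supply held the one call. Rrm2 encodes the small subunit of ribonucleotide reductase, which makes the deoxynucleotides for DNA synthesis. Its log2 intensities on arrays 1 to 4 were 10.92, 10.74, 9.95 and 10.48 in AAV_Cre liver, against 10.38, 10.04, 9.67 and 9.99 in AAV_Null liver. AAV_Cre was the higher channel on every array, but the groups overlapped, since array 3 was dim in both channels. Rrm2 rose by a log2 ratio of 0.50 ± 0.06 (SE, n = 4 arrays, 1.41-fold, 95% interval 0.33 to 0.67 on the log2 scale, limma adjusted p = 0.0405). Leaving out 1 array at a time kept the ratio between 0.45 and 0.55 and ended the call each time, with adjusted p between 0.0773 and 0.253. The Rrm2 probe lies at chr12:25398824-25398883 on the plus strand in mm9.

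None of the other 3 genes of this class passed the test. Rrm1, the large subunit of the same enzyme, had a log2 ratio of -0.02 ± 0.11 (adjusted p = 0.925, limma), with 2 arrays above 0 and 2 below. Tk1, the thymidine kinase that salvages thymidine in dividing cells, had log2 intensities of 11.64, 11.80, 11.82 and 12.05 in AAV_Cre liver, against 11.78, 12.13, 12.30 and 12.24 in AAV_Null liver. AAV_Cre was lower on every array, with a ratio of -0.28 ± 0.07, but Tk1 did not pass the test (adjusted p = 0.123, limma), and its second tested probe gave -0.18. Tyms, thymidylate synthase, was the gene of the list with a dye effect. The scanner software marked its single spot as an outlier on all 4 arrays, and its values, kept because it has no other probe, are those of marked spots. Its intensities were 10.52, 11.45, 9.17 and 9.45 in AAV_Cre liver, against 9.96, 10.48, 9.74 and 9.94 in AAV_Null liver. The channel in Cy5 was the brighter on every array, whichever RNA it held, and the fitted dye effect was 0.65 (adjusted p = 0.0428, limma), beside a treatment ratio of 0.12 ± 0.08 (adjusted p = 0.456).

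**Figure D2:**
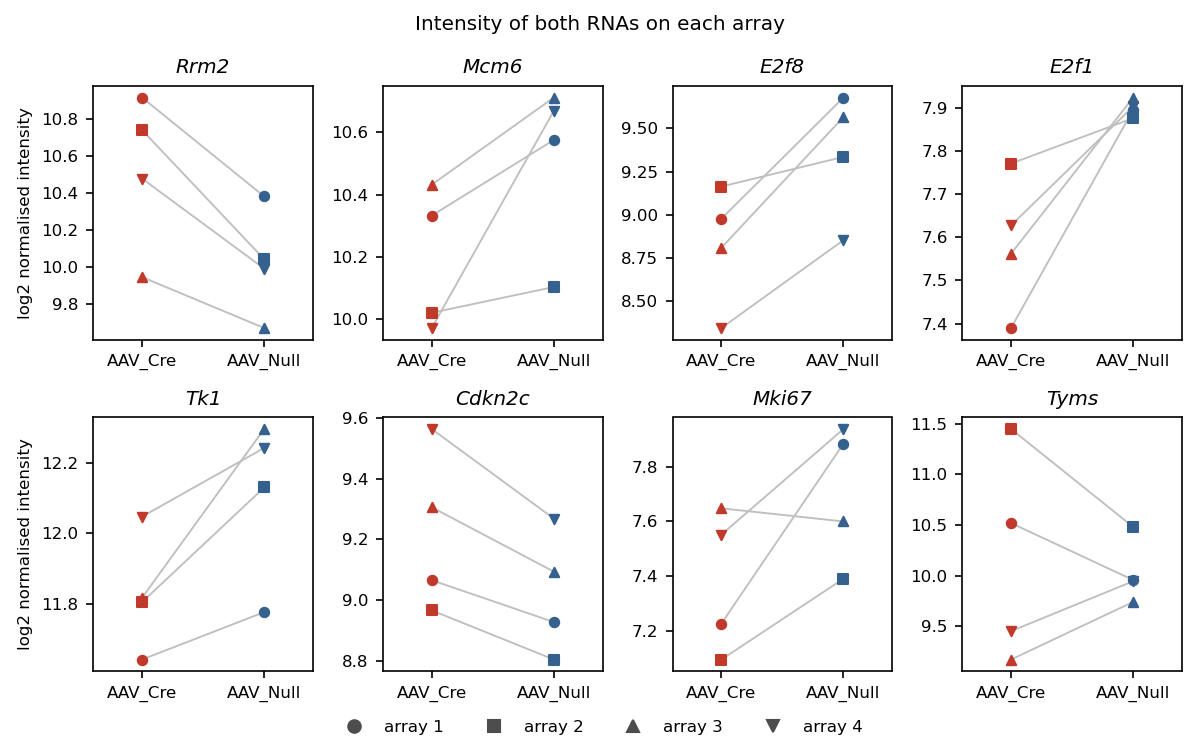
Log2 intensity of each channel (vertical axis) for genes described in the text, with AAV_Cre to the left of AAV_Null in each panel and lines joining the 2 channels of an array. Rrm2 is higher in AAV_Cre on all 4 arrays, E2f8 and E2f1 are lower on all 4, and E2f1 is the gene whose AAV_Cre values all lie below its AAV_Null values.

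Transcription regulators lay on both sides of 0, and none of the 4 tested passed the test. E2f8, an atypical E2F that represses E2F target genes and is known in mouse liver for its part in polyploidy, had the lowest ratio of the list. Its log2 intensities were 8.98, 9.16, 8.81 and 8.34 in AAV_Cre liver, against 9.68, 9.33, 9.57 and 8.85 in AAV_Null liver. The AAV_Cre channel was lower on every array, and the groups overlapped; the ratio was -0.54 ± 0.11 (adjusted p = 0.0842, limma). E2f1, an activating E2F, had intensities of 7.39, 7.77, 7.56 and 7.63 in AAV_Cre liver, against 7.90, 7.88, 7.93 and 7.90 in AAV_Null liver. It was the 1 gene of the 33 whose AAV_Cre values all lay below its AAV_Null values, as was the case for 2.68% of all genes, while 0 of the 33 lay wholly above (3.18% of all genes). Its ratio of -0.31 ± 0.08 did not pass the test (adjusted p = 0.126, limma).

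Rb1, which encodes the retinoblastoma protein that holds E2F factors in check, leaned the other way. Its intensities were 8.64, 8.84, 9.13 and 9.25 in AAV_Cre liver, against 8.61, 8.58, 8.47 and 8.90 in AAV_Null liver. The ratio was above 0 on every array, at 0.33 ± 0.08 (adjusted p = 0.110, limma). Myc, a growth-promoting transcription factor, had intensities of 8.36, 6.80, 8.22 and 8.47 in AAV_Cre liver, against 7.85, 7.14, 7.45 and 7.65 in AAV_Null liver. Array 2 went against the other 3, and the ratio was 0.44 ± 0.15 (adjusted p = 0.184, limma). Foxm1, the activator of mitotic genes, and Rbl1, the Rb relative p107, were not tested: no Foxm1 probe was above background in more than 0 AAV_Cre and 2 AAV_Null channels, and no Rbl1 probe in more than 1 of each.

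The helicase and clamp genes were all tested and none passed, with 6 of 7 ratios below 0 and a median of -0.13. Mcm2 to Mcm7 encode the subunits of the ring that unwinds DNA at replication origins. Mcm6 had log2 intensities of 10.33, 10.02, 10.43 and 9.97 in AAV_Cre liver, against 10.58, 10.10, 10.71 and 10.67 in AAV_Null liver. AAV_Cre was lower on every array and by most on array 4, and the ratio was -0.33 ± 0.09 (adjusted p = 0.130, limma). The Mcm6 probe lies at chr1:130228178-130228237 on the minus strand in mm9, within the gene whose promoter is shown above.

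The other MCM ratios were smaller. Mcm7 and Mcm3 were also below 0 on all 4 arrays, with ratios of -0.14 ± 0.06 and -0.15 ± 0.07 (adjusted p = 0.240 and 0.310, limma), and a second Mcm3 probe gave -0.10. Mcm2 had a ratio of -0.13 ± 0.05 and Mcm4 one of -0.11 ± 0.09, each with 1 array above 0, and adjusted p of 0.212 and 0.520 in limma. The Mcm2 ratio was 0.03 to 0.06 without background subtraction, with the scanner's processed signals and in the authors' deposited values. Mcm5 had a ratio of -0.01 ± 0.17 with 3 arrays above 0 and array 4 at -0.64; it was above background in 1 AAV_Cre and 3 AAV_Null channels. Pcna, the sliding clamp of DNA polymerases, had a ratio of 0.03 ± 0.05 (adjusted p = 0.773, limma), and every fitted ratio of the clamp and the helicase lay within 0.33 of 0 on the log2 scale.

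None of the 4 tested G1 cyclins passed the test. Ccnd1, cyclin D1, which couples growth signals to the cycle in hepatocytes, had intensities of 11.91, 11.34, 12.58 and 11.46 in AAV_Cre liver, against 11.48, 10.79, 12.21 and 11.68 in AAV_Null liver. Arrays 1 to 3 were higher in AAV_Cre and array 4 was lower, with a ratio of 0.28 ± 0.11 (adjusted p = 0.225, limma). Ccnd2, cyclin D2, was lower on every array, with 7.85, 7.61, 8.09 and 7.81 in AAV_Cre liver, against 7.98, 7.81, 8.32 and 7.95 in AAV_Null liver. Its ratio was -0.18 ± 0.05 (adjusted p = 0.143, limma), and the groups overlapped. Cyclin D3 did not show a difference at this precision, with 0.00 ± 0.06 at the Ccnd3 probe used and 0.04 ± 0.07 at another. Ccne1, cyclin E1, had ratios of -0.15, -0.12, 0.95 and 0.16 on arrays 1 to 4, so its value of 0.21 ± 0.14 (adjusted p = 0.424, limma) rests largely on array 3. Its second probe, above background in 2 channels of each treatment and not tested, gave 0.96, 0.20, -0.54 and -0.997, so that on each of the 4 arrays the 2 probes lay on opposite sides of 0.

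The kinases and their inhibitors also held no call. Cdk1, Cdk2 and Cdk4, the catalytic partners of the cyclins, had ratios of -0.04 ± 0.09, -0.09 ± 0.15 and -0.02 ± 0.05, and their adjusted p in limma lay between 0.746 and 0.873. Cdk2, the gene of smallest p among them, had intensities of 6.61, 7.48, 7.18 and 7.09 in AAV_Cre liver, against 7.18, 7.34, 7.38 and 6.82 in AAV_Null liver, with 2 arrays on each side of 0. The 3 Cdk4 probes gave -0.02, -0.14 and 0.01. Cdkn2c, the p18 inhibitor of Cdk4 and Cdk6, was higher in AAV_Cre liver by about the same step on each array. Its intensities were 9.07, 8.97, 9.31 and 9.56 in AAV_Cre liver, against 8.93, 8.80, 9.09 and 9.27 in AAV_Null liver. The steps ran from 0.14 to 0.30, the groups overlapped, and the ratio was 0.20 ± 0.05 (adjusted p = 0.110, limma). Cdkn1b, the p27 inhibitor, was below 0 on every array at -0.17 ± 0.05 (adjusted p = 0.155, limma), and Cdkn1c, the p57 inhibitor, had a ratio of -0.01 ± 0.08 (adjusted p = 0.953, limma) with arrays on both sides of 0.

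Cyclins of S phase and mitosis did not pass the test. Ccna2, cyclin A2, had intensities of 6.81, 6.26, 7.09 and 6.91 in AAV_Cre liver, against 7.29, 7.004, 6.88 and 6.75 in AAV_Null liver. It was lower in AAV_Cre on arrays 1 and 2 and higher on arrays 3 and 4, with a ratio of -0.22 ± 0.06 (adjusted p = 0.154, limma), and it was above background in 1 AAV_Cre and 3 AAV_Null channels. Ccnb2, cyclin B2, had a ratio of -0.22 ± 0.07 (adjusted p = 0.182, limma) with 3 arrays below 0. Ccnb1, cyclin B1, was above 0 on every array, but its ratio of 0.11 ± 0.06 was small and did not pass (adjusted p = 0.358, limma). The second Ccnb1 probe, whose sequence is shown above, gave 0.22 ± 0.10.

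Of the 9 genes of mitosis and of dividing cells, 5 were tested, all 5 had ratios below 0, with a median of -0.17, and none passed. Mki67, which encodes the Ki-67 protein used to stain dividing cells, had intensities of 7.23, 7.10, 7.65 and 7.55 in AAV_Cre liver, against 7.88, 7.39, 7.60 and 7.94 in AAV_Null liver. AAV_Cre was lower on arrays 1, 2 and 4 and about level on array 3, with a ratio of -0.32 ± 0.10 (adjusted p = 0.173, limma). The second Mki67 probe gave -0.29 ± 0.12, with array 3 above 0 at 0.36. Cdc20, the activator of the anaphase-promoting complex, had a ratio of -0.23 ± 0.09 (adjusted p = 0.215, limma), from -0.55, -0.58, 0.33 and -0.11 on arrays 1 to 4. The mitotic kinases Aurka and Plk1 had ratios of -0.17 ± 0.14 and -0.16 ± 0.08, and Birc5, survivin, one of -0.06 ± 0.11, with adjusted p in limma between 0.294 and 0.756.

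Array 3 stood apart for several of these genes. Mki67, Cdc20, Birc5 and Aurka were above 0 on array 3 and below 0 on the other arrays. Plk1, the other tested mitotic gene, did not share these signs, at -0.17, 0.14, -0.22 and -0.40 on arrays 1 to 4. Outside the mitotic genes, Mcm2 and Mcm4 were above 0 on array 3 and below 0 on the other arrays. The share of all genes with these signs was not counted. Medians over 7 macrophage markers also had these signs, at -0.34, -0.35, 0.28 and -0.64 on arrays 1 to 4. So had medians over 5 B cell markers, at -0.08, -0.27, 0.24 and -0.30. Medians over 5 neutrophil markers were -0.22, -0.52, 0.87 and -0.20, the 0.87 being that of Mpo. Mpo was dim, above background in at most 1 AAV_Cre and 3 AAV_Null channels. Csf3r, the brightest neutrophil marker (mean log2 intensity 14.81), was below 0 on every array, at -0.12 on array 3. The other neutrophil markers were above 0 there. Medians of the other marker lists had other signs. Summed linear intensities of 6 macrophage markers ran from 26748 to 53302 in AAV_Cre channels and from 38734 to 61215 in AAV_Null channels. Those of 5 neutrophil markers ran from 29034 to 34475 in AAV_Cre channels and from 26795 to 39000 in AAV_Null channels. A linear sum is weighted to its brightest marker, and the neutrophil sums were mostly the signal of Csf3r. No macrophage, neutrophil or B cell marker was called, and no marker of these lists was at background on every array. The part of these cells in the values of the mitotic genes was not tested.

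The remaining 4 mitotic genes were not tested because too few channels were above background. Aurkb, the kinase of the chromosomal passenger complex, Bub1b, the spindle checkpoint protein BubR1, and Top2a, topoisomerase II alpha, were above background in 0 of 8 channels. Bub1, a checkpoint kinase, was above background in 2 channels of each treatment. With Ccne2 and Cdk6, also at 0 of 8 channels, and with Foxm1 and Rbl1, these made up the 8 untested genes and their 10 probes. A difference in any of them was not detectable at this signal.

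The dye orientations separated the genes of the list. Taken as the mean of arrays 1 and 2 and the mean of arrays 3 and 4, 14 of the 33 genes were below 0 in both orientations and 6 above 0 in both. Another 6 were above 0 with AAV_Cre in Cy5 and below 0 with AAV_Cre in Cy3, and 7 were the reverse. These patterns were not counted over all genes. Across the 33 genes the log2 ratios of arrays 1 and 2 correlated at 0.62 and those of arrays 3 and 4 at 0.52, while pairs of opposite orientation lay between -0.18 and 0.29. Over 15736 genes with a ratio on every array the corresponding values were 0.66, 0.48 and 0.07 to 0.19. Arrays of 1 orientation share the dye assignment but no RNA, and these correlations are across genes, which are not independent replicates. Because the fitted dye effect takes up whatever separates arrays 1 and 2 from arrays 3 and 4, the standard errors hold only the spread within each orientation.

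**Figure D3:**
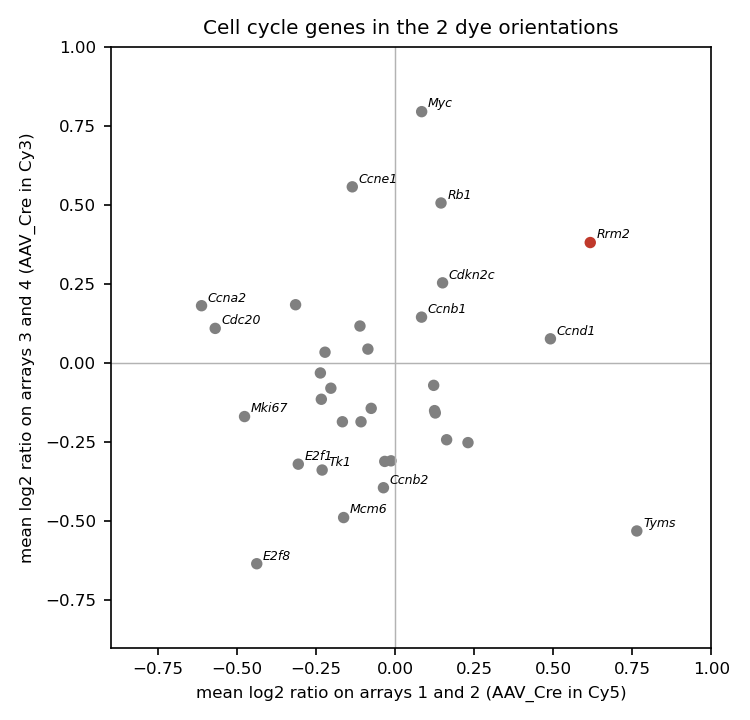
Mean log2 ratio of AAV_Cre over AAV_Null on arrays 1 and 2, where AAV_Cre was in Cy5 (horizontal axis), against that on arrays 3 and 4, where it was in Cy3 (vertical axis), with 1 point for each of the 33 tested genes and Rrm2 in red. The upper right holds the 6 genes above 0 in both orientations and the lower left the 14 below 0 in both; Tyms, at the lower right, changes sign with the dye.

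Other genes of the cycle, drawn from lists that do not repeat the 41, included larger differences than the list itself. These lists were chosen with earlier results of these data known, so the shares called in them are no independent comparison. Among 22 further regulators of cyclin-dependent kinases, 17 were tested, 3 rose (17.6% called, against 2.80% of all genes), 0 fell, and the median was 0.00. Cdkn1a encodes p21, an inhibitor of cyclin-dependent kinases and a known target of p53. Its log2 intensities were 10.14, 10.63, 10.20 and 9.93 in AAV_Cre liver, against 8.91, 8.82, 8.76 and 8.54 in AAV_Null liver. The groups did not overlap, and the ratio was 1.46 ± 0.11 (2.76-fold, adjusted p = 0.0198, limma), while a second tested probe, named for another transcript, gave 0.41 ± 0.12 (adjusted p = 0.159 over probes). Ccng1, cyclin G1, another known p53 target, had intensities of 10.60, 10.86, 10.73 and 10.67 in AAV_Cre liver, against 9.66, 9.96, 9.78 and 9.41 in AAV_Null liver. All AAV_Cre values lay above all AAV_Null values, with a ratio of 1.01 ± 0.07 (2.02-fold, adjusted p = 0.0160, limma). Gadd45a, a growth arrest gene also known as a p53 target, rose by 1.29 ± 0.12 (adjusted p = 0.0235, limma), with overlapping groups and a ratio of at least 1.01 on every array.

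Of 36 further replication genes, 28 were tested, 0 rose and 1 fell (3.57% called, against 2.80% of all genes), with a median of -0.04. The gene was Cdt1, the licensing factor that loads the MCM ring onto origins. Its log2 intensities were 8.99, 8.80, 9.05 and 9.21 in AAV_Cre liver, against 9.72, 9.55, 9.67 and 9.87 in AAV_Null liver. The groups did not overlap, and the ratio was -0.69 ± 0.05 (0.620-fold, adjusted p = 0.0160, limma). The ratios of the MCM subunits it loads ran from -0.33 to -0.01, and the difference between Cdt1 and these was not tested.

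Partners of the E2F and retinoblastoma proteins held calls in both directions. Of 16 genes in that list 15 were tested, 1 rose and 1 fell (13.3% called, against 2.80% of all genes), with a median of -0.06. Tfdp1, the DP1 protein that pairs with E2F factors to bind DNA, had intensities of 9.47, 9.36, 9.70 and 9.31 in AAV_Cre liver, against 9.17, 9.04, 8.98 and 8.84 in AAV_Null liver, and rose by 0.46 ± 0.06 (adjusted p = 0.0441, limma). Its second probe gave 0.36 ± 0.13 and did not pass (adjusted p = 0.202 over probes). Rbbp4, a histone chaperone that binds the retinoblastoma protein, had intensities of 12.82, 12.82, 12.72 and 12.54 in AAV_Cre liver, against 13.30, 13.29, 13.09 and 12.92 in AAV_Null liver. It fell, at -0.42 ± 0.05 (adjusted p = 0.0322, limma), and its second probe gave -0.39 ± 0.06 (adjusted p = 0.0615 over probes). The groups of both genes did not overlap at the probes used.

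Lists of nucleotide synthesis and of mitosis held no call in limma. Of 21 further nucleotide genes 17 were tested, with a median of -0.07 and 7 at an unadjusted p below 0.05 (41.2%, against 22.9% of all genes), and the smallest p was that of Ctps, CTP synthase, at 0.62 ± 0.10 (adjusted p = 0.0635, limma). Of 31 further mitotic genes 18 were tested, with a median of 0.00 and 2 at an unadjusted p below 0.05 (11.1%). Spc25, a kinetochore subunit, had the smallest p of these, with a ratio of 0.52 ± 0.16 (adjusted p = 0.155, limma).

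Growth factors, their receptors and immediate early genes, which lie upstream of the cycle, made up the last list. Of its 25 genes 21 were tested, 0 rose and 1 fell (4.76% called, against 2.80% of all genes), with a median of -0.01. The gene was Ier3, an immediate early gene, whose log2 intensities were 6.52, 6.40, 7.14 and 6.90 in AAV_Cre liver, against 7.10, 6.95, 7.22 and 7.003 in AAV_Null liver. It was dim, above background in 3 AAV_Cre and 2 AAV_Null channels, and its ratio of -0.33 ± 0.05 (adjusted p = 0.0493, limma) came mostly from arrays 1 and 2, where AAV_Cre was in Cy5. With the scanner's processed signals the Ier3 ratio was 0.07. Mycn, a relative of Myc named here after its values were seen, had a ratio further from 0 but did not pass (-1.04 ± 0.22, adjusted p = 0.0923, limma). Its log2 intensities were 7.06, 6.64, 7.28 and 6.97 in AAV_Cre liver, against 8.63, 7.45, 7.65 and 8.41 in AAV_Null liver, with no overlap between the groups. Of the 7 calls in these 6 lists, that of Ccng1 held without array 3 (limma adjusted p = 0.0433), and each of the others ended when any 1 array was left out.

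**Figure D4:**
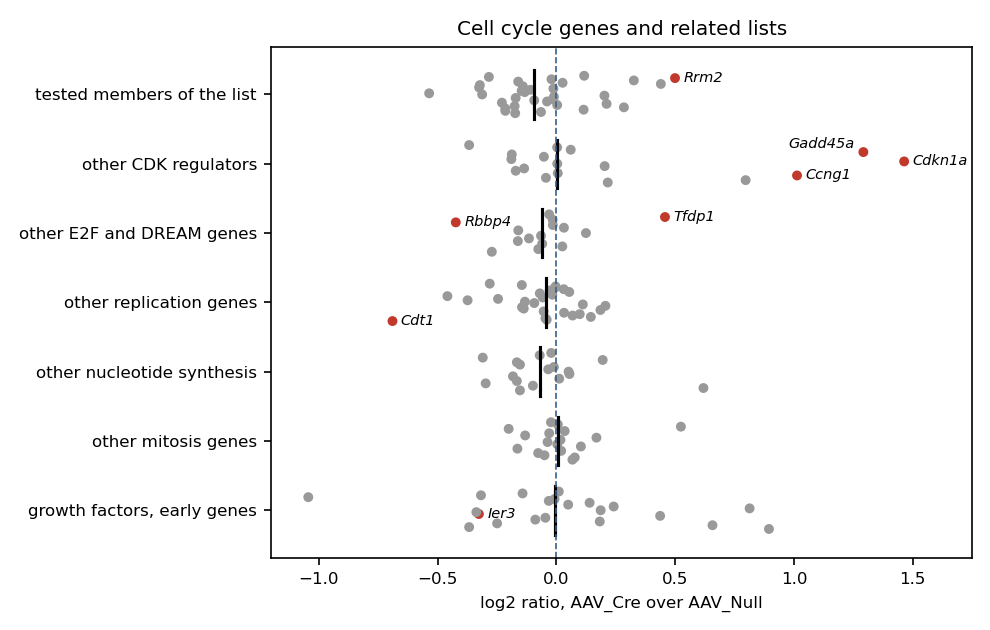
Log2 ratio of AAV_Cre over AAV_Null (horizontal axis) for every tested gene of the cell cycle list and of the 6 further lists, 1 row per list, with genes at an adjusted p below 0.05 coloured and named and a bar at the median. The list medians lie between -0.09 and 0.00, while Cdkn1a, Gadd45a and Ccng1 lie above 1, Cdt1 lies at -0.69, and the lowest point, Mycn at -1.04, is not a call.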

How the data were processed

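Liver RNA of AAV_Cre and AAV_Null mice was compared on 4 arrays, 1 RNA per channel. The deposited scanner files hold intensities read with Agilent Feature Extraction 11.5.1.1, per the submitters' processing notes, with a log10 ratio and spot flags (background, saturation, outlier; coded as other values) per the file headers. The authors also deposited a table of log2 values; the submitters' notes also list limma, with no role given. Set against the scanner's log10 ratios it had slopes of 3.34, 3.33, -3.29 and -3.39, so it runs as AAV_Cre over AAV_Null on every array, with column medians of -0.022, -0.038, 0.035 and 0.041 and centring otherwise unstated. It was used as an alternative. The labels describe both a reverse transcription labelling and the Agilent Low input kit on 200 ng of RNA, in a pseudo dye swap.

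Mean and background intensities were corrected by normexp (offset 50) and normalised by loess within arrays with limma 3.58.1 in R 4.3.3, control spots at weight 0 and outlier spots left out, unless every spot of a probe was marked on all 4 arrays (141 tested probes, from which 133 genes were read). Spots of a probe were averaged. A probe was tested if its signal was well above background in 3 or more channels of 1 treatment, with a spot kept on at least 3 arrays and in both dye orientations, which left 20373 of 39429 probes and 16112 genes. Symbols were updated through RefSeq accessions (27508 probes), current symbols (3544) or synonyms (404), and 7973 probes kept the array's name. The fit held a dye and a treatment effect, with empirical Bayes variances (prior degrees of freedom 2.56) and Benjamini-Hochberg adjustment over all genes at 0.05. Each slide position held 1 array of the same slide, and depth does not apply to arrays, whose number limits the precision; at most 2 residual degrees of freedom remained per gene. The code was tested on simulated data. Genes named are all 41 of the list, the called genes of each further list (at most 3), or, in a list with no call, its gene of smallest p. Trib1, Mycn, Mpo, Dcn, Krt7 and Ncr1 were named besides. The members, lists and named genes were chosen with earlier results of these data known. The alternatives concern the dye effect, background, normalisation, filter, marked spots, probe choice, variance model, the authors' values, a separate-channel fit, each array and the threshold.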

Additional observations from a re-analysis of the deposited data

Results flagged for a closer look

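Ccng1 was picked out because 1 array lay far from the other 3. Its log2 ratio of AAV_Cre over AAV_Null was 1.26 on array 4 (1.257 before rounding), against 0.90, 0.94 and 0.95 on the other arrays. Among 51 genes checked in this way 1 was picked out. Were the 4 arrays exchangeable, chance alone would give about 2.55. Arrays of 1 dye orientation correlated more with each other than with the rest, so that figure may not apply here. Without array 4 the Ccng1 ratio was 0.94, on the same side of 0.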

How the results depend on the processing

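Rrm2 was above 0 in all 21 alternatives, at 0.45 to 0.58, and past the threshold in 13 of them, with adjusted p in limma between 0.00719 and 0.253. The median ratio of the tested cell cycle genes was below 0 in every alternative, from -0.14 to -0.04. The number of genes called was 451 and the number of cell cycle genes 1 (Rrm2) as reported. They were 248 and 0 without the dye effect, 1393 and 6 without background subtraction, 194 and 0 with a normexp offset of 10, 782 and 2 with Agilent's processed signals, 700 and 2 with median centring in place of loess, and 272 and 0 with no filter on dim probes. With the authors' deposited log2 values they were 1317 and 5, in a separate-channel fit 2600 and 7, at an adjusted p of 0.1 they were 1365 and 2, and at 0.01 they were 10 and 0. E2f8 and E2f1 were called lower in the sets of 6, 5 and 7. Filtering on all channels, keeping outlier spots, other probe choices, a trended variance and array weights gave 401 to 583 genes and Rrm2 each time. Leaving out marked spots also where a probe has no other, an alternative chosen after seeing the data, removed Tyms and gave 447 genes and Rrm2, with a median of -0.10 over 32 cell cycle genes. Leaving out 1 array gave 0 to 38 genes (0 without array 1 or 2, 38 without array 3, 5 without array 4) and 0 to 0 cell cycle genes, with 2157 to 3408 genes and 8 to 13 cell cycle genes at an unadjusted p below 0.05. At the settings with 0 cell cycle genes on all 4 arrays, 9 to 16 had an unadjusted p below 0.05.

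Signs turned for genes near 0. Ccnd3 was -0.0026 without background subtraction and -0.000403 with an offset of 10, against 0.003 as reported, Mcm5 was 0.0049 with an offset of 10, and Cdk4 was 0.017 with processed signals and 0.085 with median centring. Mcm2 was 0.029 without background subtraction, 0.064 with processed signals and 0.037 in the authors' values. With processed signals Ier3 was 0.068 and Cd3d, a T cell marker, -0.033, and the Trib1 probe of smallest spread gave -0.047. Leaving out 1 array, ratios ran from -0.043 to 0.049 for Ccnd3, -0.14 to 0.063 for Cdk1, -0.27 to 0.085 for Cdk2, -0.11 to 0.089 for Cdkn1c, -0.22 to 0.0061 for Mcm4, -0.26 to 0.23 for Mcm5, -0.14 to 0.096 for Rrm1 and -0.19 to 0.057 for Birc5. The cause of these turns was not tested. The ratios already pair the 2 RNAs of each array. Beyond that pairing by array, a block on replicate number could not be fitted: no paired analysis was possible because each RNA was hybridised once and no replicate number is shared between groups.

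Precision is set by 4 arrays, with at most 2 residual degrees of freedom, and by the dimness of the mitotic genes, of which 4 of 9 were too close to background to test. The dye effect absorbs what separates the orientations, RNA included, so the standard errors do not hold it. The p-values therefore rest on the spread between RNA pairs of the same orientation, with empirical Bayes variances. Nothing in the labels says whether the RNAs are from separate animals or pools, so that spread is not known to be one between animals.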

Other observations

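Markers of the other cells of the liver were read beside the cell cycle genes. Stellate cell and fibroblast markers had 5 of 5 tested ratios above 0, with a median of 0.33 and 1 call (2.80% of all genes were called). Col3a1, a fibrillar collagen chain, had log2 intensities of 11.33, 10.59, 11.25 and 10.50 in AAV_Cre liver, against 10.84, 9.98, 10.73 and 10.22 in AAV_Null liver, and rose by 0.47 ± 0.06 (SE, adjusted p = 0.0441, limma). Leaving out any 1 array ended that call. Summed linear intensities of the 5 stellate markers ran from 45594 to 62322 in AAV_Cre channels and from 31990 to 54987 in AAV_Null channels. These sums were mostly the signal of Dcn, the brightest of these markers (mean log2 intensity 15.36).

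No other marker list held a call. Endothelial markers had 5 of 6 ratios below 0, with a median of -0.17, and Clec4g, a lectin of the sinusoidal endothelium, had -0.35 ± 0.06 (adjusted p = 0.0622, limma). Medians were -0.25 over 7 macrophage, -0.15 over 5 neutrophil, 0.20 over 3 cholangiocyte, -0.01 over 4 T and NK cell, 0.01 over 5 B cell, -0.25 over 3 erythroid and 0.01 over 6 hepatocyte markers. The genes of smallest p in these lists were Marco (-0.59), Csf3r (-0.15), Sox9 (0.22), Cd3d (0.21), Cd79a (0.14), Hbb-b2 (-0.33) and Alb (-0.39). In the same order their adjusted p in limma were 0.0936, 0.192, 0.113, 0.246, 0.206, 0.353 and 0.0748. Krt7, a bile duct keratin, and Ncr1, of NK cells, were at background in every channel. The part of these cells in the values of the cell cycle genes was not tested.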
